A study of Mus musculus with 16 samples.

Results

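The 7 genes described here encode the sarcomeric myosin heavy chains of mouse skeletal muscle: Myh3, Myh8, Myh1, Myh4, Myh2, Myh7 and Myh7b. They were taken by name, as the embryonic, perinatal, fast and slow members of the family, and are 7 of 35613 genes with a matched transcript in the files. RNA was sequenced from 16 libraries of primary myoblast cultures with a Pax7-nGFP genotype, in which a nuclear GFP reports Pax7, a factor of muscle stem cells. In all, 15 libraries formed 5 groups of 3 samples that the labels call biological replicates, from 16-week-old male mice. GFP+ MPC were sorted for GFP from cultures that had spent 2 to 3 passages as myoblasts and then 5 to 6 passages in MPC medium, a name the labels do not spell out. That medium held 10% FBS, 10% KnockOut Serum Replacement, 10 ng/ml bFGF, and 3 agents: forskolin at 5 µM, which raises cAMP, RepSox at 5 µM, which blocks TGF-beta receptor signalling, and a compound spelled CHIR9901 at 3 µM. GFP+ myoblasts were sorted at passage 5 to 6 from a medium with 10% horse serum, 20% FBS and 10 ng/ml bFGF. Bulk MPC were the unsorted MPC cultures. Differentiated myoblasts were at passage 4 to 5 and had spent 3 days in 2% horse serum, and bulk myoblasts were unsorted cells at passage 3 in myoblast medium. A single library came from the GFP+ cells of a female aged 39 weeks, whose GFP- myoblasts were taken at passage 8 and then kept in MPC medium for 2 passages (high-passage GFP+ MPC). Sorted cells, 300000 to 500000 a sample, went through another RNA kit than unsorted cells, so the sort and the kit cannot be told apart, and the medium, its agents and the passage number change together between MPC and myoblasts.

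Sarcomeric myosin heavy chains are the motor proteins of the thick filament, and each muscle fibre is classed by the one it makes. Myh3 is the embryonic and Myh8 the perinatal chain, both made early in muscle formation and in regeneration and later replaced by adult chains. Myh2, Myh1 and Myh4 are the adult fast chains of type IIA, IIX and IIB fibres, from the slowest to the fastest, whereas Myh7 is the slow chain of type I fibres and of the heart. Myh7b is a slow-type chain at low levels in most muscle. Myh3, Myh2, Myh1, Myh4 and Myh8 lie in a cluster on chromosome 11, Myh7 lies beside Myh6 on chromosome 14, and Myh7b on chromosome 2.

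Library totals ran between 19.3 and 29.1 M (mega) estimated counts. Pax7 stood at 206 ± 45.3 TPM (transcripts per M) in GFP+ MPC and 16.5 ± 9.81 TPM in bulk MPC (SD, n = 3 each). It stood at 257 ± 15.1 TPM in GFP+ myoblasts and 155 ± 18.8 TPM in bulk myoblasts. The 5 stem cell and myoblast markers (Pax7, Myf5, Myod1, Des and Cdh15) summed to 1055 to 1332 TPM in GFP+ MPC and 2850 to 3141 TPM in bulk MPC. In myoblasts they summed to 1675 to 2084 TPM in GFP+ and 2339 to 2428 TPM in bulk cells. Between the MPC groups Des alone had a lower mean in GFP+ cells (414 against 2730 TPM), and the others were higher. The 5 markers of differentiated muscle (Myog, Ckm, Acta1, Tnnt3 and Mymk) summed to 486 to 1098 TPM in GFP+ MPC, 277 to 544 TPM in GFP+ myoblasts, 20269 to 23022 TPM in bulk MPC, 24045 to 25232 TPM in differentiated myoblasts and 9106 to 12928 TPM in bulk myoblasts. No member of that list was at 0 in any library. In unsorted cultures a change in the share of myotubes and a change in RNA per myotube cannot be told apart. The 5 fibroblast markers (Pdgfra, Dcn, Lum, Col3a1 and Thy1) summed to 546 to 771 TPM in GFP+ MPC and 321 to 474 TPM in GFP+ myoblasts. In unsorted cells the sums were 24.1 to 337 TPM in bulk MPC, 13.5 to 36.2 TPM in differentiated myoblasts and 299 to 378 TPM in bulk myoblasts. Col3a1 held most of each sum, at means of 597 TPM in GFP+ MPC and 403 TPM in GFP+ myoblasts. In these sorted groups Thy1 had 27.4 and 2.21 TPM, Dcn 4.02 and 0.0156 TPM, Pdgfra 0.169 and 0.838 TPM, and Lum 0. The 5 cardiomyocyte markers summed to at most 6.26 TPM in any library, with Nppa and Nkx2-5 at 0 throughout.

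The promoter windows of the 4 chromosome 11 genes that share a sequence run are shown with that of Myh3, which lies in the same cluster and lacks it. Each window spans 250 bases before and 50 bases from the transcription start, on the plus strand of chromosome 11 in RefSeq GRCm38.p6: chr11:67276874-67277173 for Myh8, chr11:67237562-67237861 for Myh4, chr11:67199852-67200151 for Myh1, chr11:67170777-67171076 for Myh2 and chr11:67078050-67078349 for Myh3. Capitals mark the 14-base run TTCTAATTATATCC and, in Myh8, Myh4 and Myh1, a match to the MEF2 site upstream of it.
Myh8: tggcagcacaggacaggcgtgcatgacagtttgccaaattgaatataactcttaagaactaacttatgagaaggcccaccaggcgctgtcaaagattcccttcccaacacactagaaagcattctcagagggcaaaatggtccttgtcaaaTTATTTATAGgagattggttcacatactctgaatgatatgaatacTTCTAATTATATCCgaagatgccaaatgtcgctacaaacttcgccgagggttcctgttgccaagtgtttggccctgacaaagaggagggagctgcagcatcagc
Myh4: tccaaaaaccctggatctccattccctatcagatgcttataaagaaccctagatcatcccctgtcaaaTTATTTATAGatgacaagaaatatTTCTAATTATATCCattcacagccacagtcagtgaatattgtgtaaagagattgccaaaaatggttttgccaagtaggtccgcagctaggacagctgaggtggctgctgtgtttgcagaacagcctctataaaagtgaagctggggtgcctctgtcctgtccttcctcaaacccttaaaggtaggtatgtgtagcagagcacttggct
Myh1: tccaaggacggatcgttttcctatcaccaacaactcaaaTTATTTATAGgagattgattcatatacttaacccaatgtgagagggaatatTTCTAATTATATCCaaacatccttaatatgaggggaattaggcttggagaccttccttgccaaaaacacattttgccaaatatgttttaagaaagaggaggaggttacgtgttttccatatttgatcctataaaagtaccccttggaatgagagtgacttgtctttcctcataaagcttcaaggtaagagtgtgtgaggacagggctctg
Myh2: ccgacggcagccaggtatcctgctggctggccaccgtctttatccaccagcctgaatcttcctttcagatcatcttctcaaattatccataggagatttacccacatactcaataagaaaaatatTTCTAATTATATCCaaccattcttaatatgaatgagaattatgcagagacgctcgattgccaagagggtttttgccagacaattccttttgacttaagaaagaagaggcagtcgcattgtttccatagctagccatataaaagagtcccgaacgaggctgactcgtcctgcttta
Myh3: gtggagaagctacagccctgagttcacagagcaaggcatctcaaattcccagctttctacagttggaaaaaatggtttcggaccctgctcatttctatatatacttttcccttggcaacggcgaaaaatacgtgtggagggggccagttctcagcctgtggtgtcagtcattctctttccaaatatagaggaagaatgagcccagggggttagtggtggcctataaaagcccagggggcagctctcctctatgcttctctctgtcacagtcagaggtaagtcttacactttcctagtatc
The common run begins at -54 in Myh8, -158 in Myh4, -160 in Myh1 and -125 in Myh2, counted from the start. It was found as the longest run common to these 4 windows, so its presence in them was fixed by the search. Among 32851 promoter windows of this length, none but these 4 hold it (0.0122%). MEF2 is the family of factors that works with the myogenic factors at muscle genes. A match to its site, searched by name on both strands, begins at -99 in Myh8, -182 in Myh4 and -211 in Myh1, and 3.19% of all windows hold one. These matches overlap a TATAAA match on the minus strand. The E-box CANNTG, the core to which MyoD and myogenin bind, is in 72.3% of windows. It occurs once in Myh3, at 3 places in Myh4 and at 2 places in Myh8, Myh7 and Myh7b, while no match was found in the windows of Myh1 and Myh2. TATAAA on the plus strand begins at -32 in Myh1, at 10 after the start in Myh2, at -29 in Myh3 and at -31 and -213 in Myh4, with 13.6% of windows holding it on either strand. The MCAT element CATTCC, in 14.7% of windows, was found in Myh1, Myh4 and Myh7, and a CArG box, in 1.63%, in Myh4. A match describes the letters of a window and is not evidence of binding.

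Together the 7 genes summed to 214 ± 65.4 TPM in GFP+ MPC, 42.5 ± 9.94 TPM in GFP+ myoblasts, 13246 ± 1509.9 TPM in bulk MPC, 12551 ± 1706 TPM in differentiated myoblasts and 4347 ± 1001 TPM in bulk myoblasts (SD, n = 3 each). They made up 0.0214% of all TPM in GFP+ MPC, 0.0042% in GFP+ myoblasts, 1.32% in bulk MPC, 1.26% in differentiated myoblasts and 0.435% in bulk myoblasts. Bulk MPC and differentiated myoblasts thus held similar sums, with 11518 to 14314 TPM in bulk MPC and 11524 to 14520.5 TPM in differentiated myoblasts. The make-up of the sum differed between them. TPM is per length, so the genes can be set side by side, and each gene's share of the 7-gene TPM sum is called its share below.

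**Figure D1:**
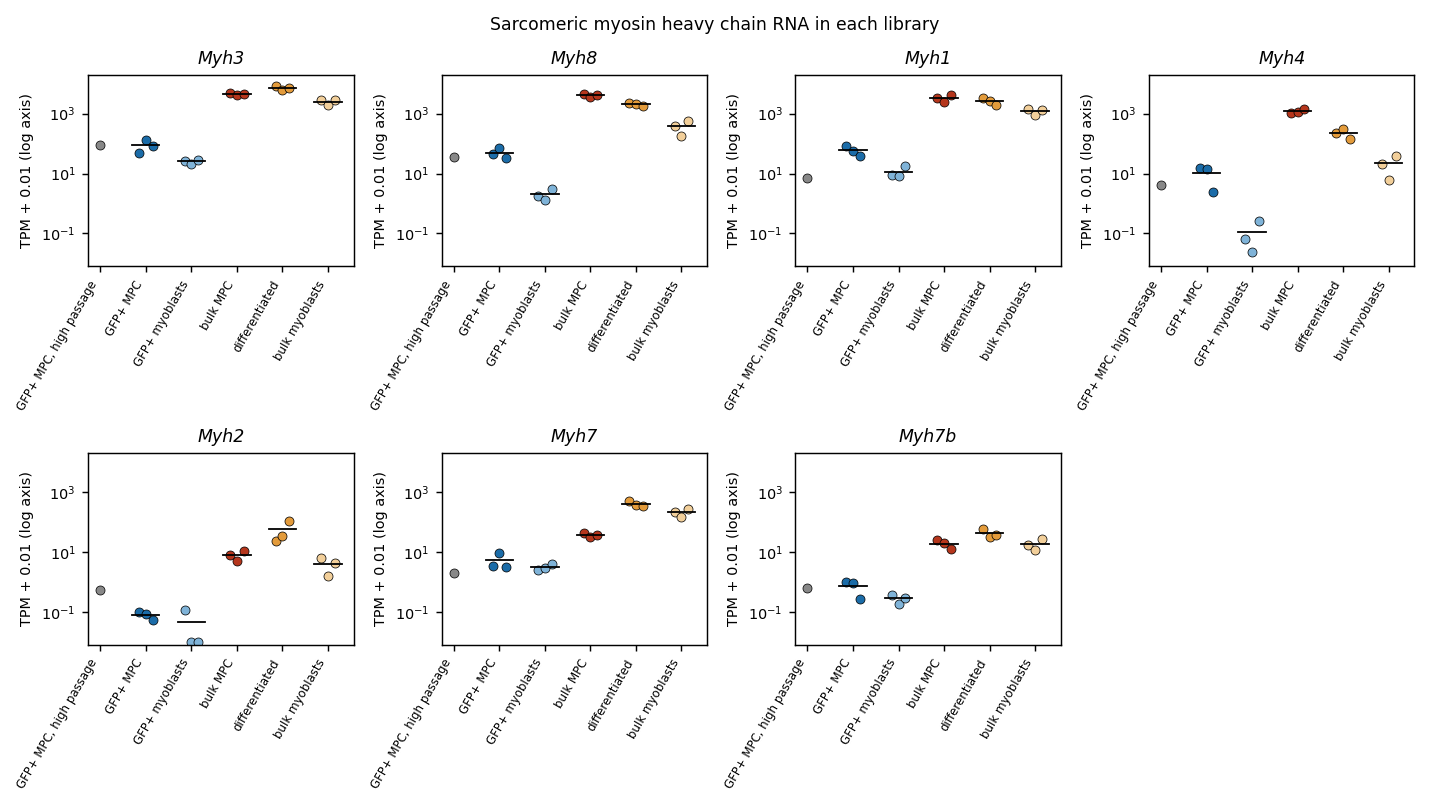
TPM of each gene (vertical log axis, TPM + 0.01) in the 16 libraries by group, with points for libraries and bars for means of 3. All 7 genes are lower in GFP+ cells than in the unsorted cells of the same culture, and Myh8 and Myh4 are highest in bulk MPC, at means of 4146 and 1202 TPM.

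Myh3, the embryonic chain, had the highest share in every group. It made up 40.5 ± 14.6% of the sum in GFP+ MPC, 60.4 ± 6.75% in GFP+ myoblasts, 34.3 ± 3.31% in bulk MPC, 57.3 ± 4.30% in differentiated myoblasts and 58.4 ± 3.10% in bulk myoblasts (SD, n = 3 each). Myh8, the perinatal chain, made up 22.8 ± 2.57% in GFP+ MPC, 4.67 ± 1.00% in GFP+ myoblasts, 31.3 ± 1.83% in bulk MPC, 16.4 ± 1.23% in differentiated myoblasts and 8.28 ± 2.72% in bulk myoblasts. All MPC libraries, sorted or not, lay above all other replicated libraries in the share of Myh8. Myh4, the IIB chain, made up 4.81 ± 3.23% in GFP+ MPC, 0.214 ± 0.218% in GFP+ myoblasts, 9.12 ± 1.28% in bulk MPC, 1.79 ± 0.732% in differentiated myoblasts and 0.46 ± 0.277% in bulk myoblasts. Myh1, the IIX chain, kept to mean shares between 20.5% and 29.2% in the 5 groups. Among the GFP+ MPC, replicate 1 stood apart, with Myh1 at 43.5% and Myh3 at 23.9%, against 20.1% and 46.0% in replicate 2 and 24.1% and 51.6% in replicate 3.

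The slow chains followed another order. Myh7 made up 2.30 ± 0.773% of the sum in GFP+ MPC, 7.51 ± 1.31% in GFP+ myoblasts, 0.283 ± 0.0280% in bulk MPC, 3.20 ± 0.184% in differentiated myoblasts and 4.79 ± 0.456% in bulk myoblasts. Myh7b and Myh2 stayed below 0.9% in every library but differentiated replicate 3, where Myh2 reached 0.950%. On the log2 scale the ratio of Myh8 to Myh3 TPM was -0.76 ± 0.61 in GFP+ MPC, -3.71 ± 0.45 in GFP+ myoblasts, -0.13 ± 0.14 in bulk MPC, -1.80 ± 0.20 in differentiated myoblasts and -2.87 ± 0.55 in bulk myoblasts. With 3 libraries against 3, the exact two-sided permutation test cannot give a p below 0.1, so shares and ratios are given as values.

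**Figure D2:**
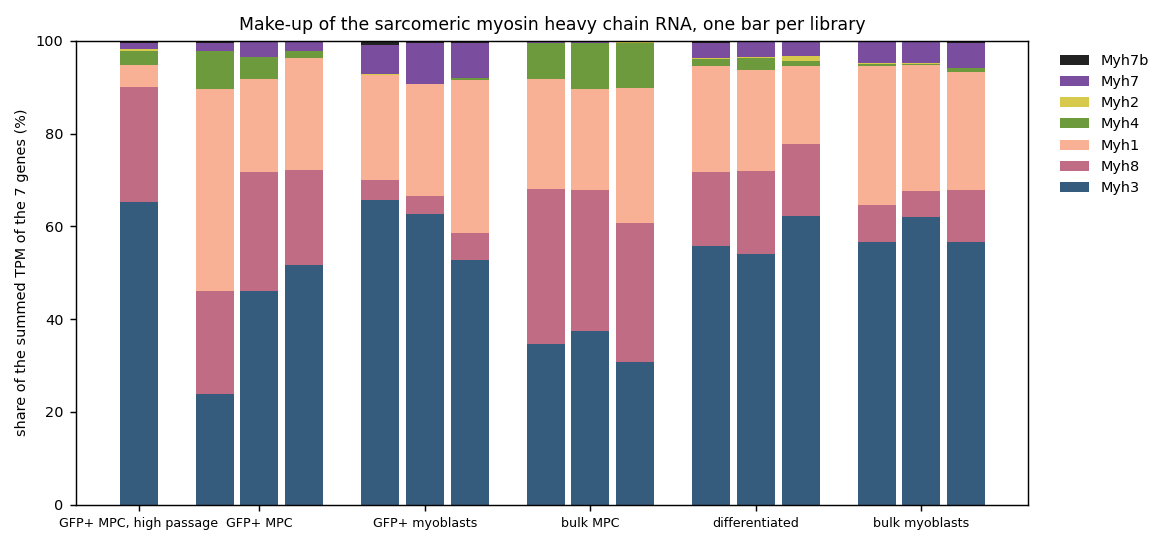
Share of each gene in the summed TPM of the 7 genes (vertical axis, %), with a stacked bar for each library, grouped by culture. The Myh8 segment is 20.6 to 33.4% in the 6 replicated MPC bars and 3.88 to 17.8% in the other replicated bars.

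The comparison of GFP+ MPC with GFP+ myoblasts asks how Pax7 reporter-positive cells of both media differ. In GFP+ MPC, 5 of the 7 genes were higher (Myh4, Myh8, Myh1, Myh3 and Myh7), none was lower, and Myh7b and Myh2 did not pass the test. In the fit of all 15533 genes with edgeR, 26% were called higher and 22.7% lower at an adjusted p under 0.05. Median log2 fold changes were 1.87 over the 7 genes and 0.09 over all genes. Myh8 had 43.6, 73.2 and 32.6 TPM in GFP+ MPC, against 1.74, 1.31 and 3.09 TPM in GFP+ myoblasts. The groups did not overlap, and the log2 fold change was 4.70 ± 0.48 (SE, edgeR adjusted p = 5.3e-06). Myh4 had 15.8, 13.8 and 2.50 TPM in GFP+ MPC, against 0.0573, 0.0138 and 0.245 TPM in GFP+ myoblasts. Replicate 3 of GFP+ MPC was the lowest of its group, yet above all GFP+ myoblasts. The log2 fold change of Myh4 was 6.90 ± 1.00 (edgeR adjusted p = 9.75e-05). It rests on 5.20, 1.05 and 15.8 estimated counts in GFP+ myoblasts, where a split of reads shared with Myh1 cannot be told from low expression.

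Myh1 had 85.4, 57.3 and 38.2 TPM in GFP+ MPC, against 9.07, 8.15 and 17.6 TPM in GFP+ myoblasts, a log2 fold change of 2.53 ± 0.39 (edgeR adjusted p = 0.000167). Myh3 had 46.9, 132 and 81.8 TPM in GFP+ MPC, against 26.4, 21.2 and 28.1 TPM in GFP+ myoblasts, a log2 fold change of 1.87 ± 0.29 (edgeR adjusted p = 0.000186). Neither gene's groups overlapped, and Myh3, which had the highest level in GFP+ myoblasts, changed least among these 4. Myh7 had 3.44, 9.11 and 3.11 TPM in GFP+ MPC, against 2.49, 2.98 and 4.03 TPM in GFP+ myoblasts, so the groups overlapped in TPM. On counts its log2 fold change was 0.96 ± 0.34 (edgeR adjusted p = 0.0318), and without GFP+ MPC replicate 2, the highest library, it was 0.50 with an adjusted p of 0.213. The Myh7 call was also lost without GFP+ myoblast replicate 1 (0.91, adjusted p = 0.089) or replicate 2 (0.79, adjusted p = 0.118). Myh7b differed by a log2 value of 1.33 ± 0.63 (edgeR adjusted p = 0.0966) on 14 to 48 counts in GFP+ MPC and 9 to 19 in GFP+ myoblasts; without GFP+ MPC replicate 3 it was 1.73 with an adjusted p of 0.0352. Myh2, the IIA chain, had 3.31 to 6.71 counts in GFP+ MPC and 10.2, 0 and 0 in GFP+ myoblasts, where no difference was detectable at this depth. The differentiated muscle markers summed to 486 to 1098 TPM in GFP+ MPC and 277 to 544 TPM in GFP+ myoblasts. The fibroblast markers, mostly Col3a1, summed to 546 to 771 TPM and 321 to 474 TPM in the same groups. The part of both lists in these changes was not tested.

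Bulk MPC and bulk myoblasts compare the same media without the sort. Myh4, Myh8, Myh1 and Myh3 were higher in bulk MPC, Myh7 was lower, and Myh2 and Myh7b did not pass. Among all genes 28.4% were higher and 30.1% lower, and the median log2 fold change was 1.39 over the 7 genes and -0.01 over all. Scaling by library totals alone put 28.2% of all called genes on the higher side, against 48.5% in the fit reported here. Myh8 had 4638, 3513 and 4287 TPM in bulk MPC, against 390, 181 and 556 TPM in bulk myoblasts. All bulk MPC libraries were above all bulk myoblast libraries, with a log2 fold change of 3.92 ± 0.45 (edgeR adjusted p = 1.1e-05). Myh4 had 1063, 1152 and 1391 TPM in bulk MPC, against 21.5, 6.06 and 37.3 TPM in bulk myoblasts, a log2 fold change of 6.26 ± 0.81 (edgeR adjusted p = 2.75e-05). Its groups were far apart, although bulk myoblasts varied more among themselves. The 5 markers of smooth muscle and pericytes (Acta2, Myh11, Tagln, Cnn1 and Rgs5) summed to 129.7 to 208 TPM in bulk MPC. Their sums were 887 to 1078 TPM in differentiated myoblasts and 1323 to 1676 TPM in bulk myoblasts. Acta2 held most of these, at means of 149, 952 and 1224 TPM in the same order. Tagln had means of 9.84, 13.0 and 155 TPM and Rgs5 of 2.25, 0.992 and 70.6 TPM, again in that order. Means in these groups were at most 0.156 TPM for Myh11 and 0.435 TPM for Cnn1. The part of these markers in the changes was not tested. Myh8, Myh4 and Myh1 are the genes whose windows hold both the common run and a MEF2 match, whereas Myh2 holds the run without such a match. Myh3, also higher in bulk MPC, holds neither, and a link between these sequences and the levels was not tested.

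Myh1 had 3310.3, 2490 and 4162 TPM in bulk MPC, against 1447, 871 and 1283 TPM in bulk myoblasts, a log2 fold change of 1.94 ± 0.38 (edgeR adjusted p = 0.000713). Myh3 had 4817, 4309 and 4413 TPM in bulk MPC, against 2730.2, 1980.3 and 2841 TPM in bulk myoblasts, a log2 fold change of 1.31 ± 0.29 (edgeR adjusted p = 0.00159). Both were higher without overlap. Myh7 went the other way, with 43.8, 31.04 and 37.7 TPM in bulk MPC, against 218, 145 and 267 TPM in bulk myoblasts. Its log2 fold change was -2.05 ± 0.32 (edgeR adjusted p = 0.000122), and it ranged between -2.43 and -1.84 over 14 other settings and left-out libraries. Myh2 had 7.70, 4.97 and 10.6 TPM in bulk MPC, against 6.32, 1.52 and 4.22 TPM in bulk myoblasts, and the groups overlapped. Its log2 difference of 1.39 ± 0.59 missed the threshold (edgeR adjusted p = 0.0567) and passed it without bulk MPC replicate 2 (1.65, adjusted p = 0.0378) or bulk myoblast replicate 1 (1.89, adjusted p = 0.0347). It also passed with the replicate number as a block (1.44, adjusted p = 0.0261), in these groups whose same-numbered libraries deviated together. Myh7b differed by 0.62 ± 0.40 (edgeR adjusted p = 0.198), and by 1.05 with an adjusted p of 0.0477 without bulk myoblast replicate 3.

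Differentiation for 3 days was set against the same bulk myoblasts. The differentiated cells were at passage 4 to 5 and the bulk myoblasts at passage 3, so differentiation and passage cannot be told apart. All 7 genes were higher in differentiated myoblasts, and no gene's TPM overlapped between the groups, where 25.6% of all genes were called higher and 28.6% lower. In TPM, 24% of all tested genes were higher in every differentiated than in every bulk myoblast library. Median log2 fold changes were 1.68 over the 7 genes and -0.03 over all, and library totals alone gave 31.8% of called genes on the higher side, against 47.2% here. Myh2 had 23.3, 34.4 and 109 TPM in differentiated myoblasts, with replicate 3 well above the others, against 6.32, 1.52 and 4.22 TPM in bulk myoblasts. Its log2 fold change of 3.95 ± 0.64 (edgeR adjusted p = 0.000191) was the highest of the 7 in this comparison. Myh4 had 222, 304 and 142 TPM in differentiated myoblasts, against 21.5, 6.06 and 37.3 TPM in bulk myoblasts, with a log2 fold change of 3.55 ± 0.71 (edgeR adjusted p = 0.000976). Myh8 had 2316, 2071 and 1789 TPM in differentiated myoblasts, against 390, 181 and 556 TPM in bulk myoblasts, with a log2 fold change of 2.63 ± 0.43 (edgeR adjusted p = 0.000205). No library of one group reached the range of the other for either gene.

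Myh3 had 8091, 6269 and 7164 TPM in differentiated myoblasts, the highest levels of any of the 7 genes in any library, against 1980.3 to 2841 TPM in bulk myoblasts, with a log2 fold change of 1.68 ± 0.29. Myh1, with 1935 to 3316 TPM in differentiated and 871 to 1447 TPM in bulk myoblasts, rose by 1.30 ± 0.37 (edgeR adjusted p = 0.01). The slow chains rose with the others here. Myh7 had 493, 367 and 349.5 TPM in differentiated myoblasts, against 218, 145 and 267 TPM in bulk myoblasts, with a log2 fold change of 1.13 ± 0.31 (edgeR adjusted p = 0.00766). Myh7b, with 58.7, 30.9 and 35.9 TPM in differentiated myoblasts against 16.3, 11.4 and 27.0 TPM in bulk myoblasts, rose by 1.28 ± 0.40 (edgeR adjusted p = 0.0159). The Myh7b call was lost without differentiated replicate 1 (0.95, adjusted p = 0.0853), bulk myoblast replicate 1 (1.22, adjusted p = 0.0537) or bulk myoblast replicate 2 (0.99, adjusted p = 0.0697).

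Bulk MPC and differentiated myoblasts, both rich in myotube transcripts, were then compared directly, since their comparisons with bulk myoblasts share those control libraries. Bulk MPC had more Myh4 and Myh8, less Myh7 and Myh2, and no difference past the test in Myh3, Myh1 and Myh7b. Of all genes 24.4% were higher and 19.4% lower, and median log2 fold changes were -0.37 over the 7 genes and 0.07 over all. Library totals alone gave 41.6% of called genes on the higher side, against 55.7% here. Myh4 differed by 2.71 ± 0.69 (edgeR adjusted p = 0.00627), with 1063 to 1391 TPM in bulk MPC and 142 to 304 TPM in differentiated myoblasts. Myh8 differed by 1.29 ± 0.41 (edgeR adjusted p = 0.0212), with 3513 to 4638 TPM in bulk MPC and 1789 to 2316 TPM in differentiated myoblasts. Neither gene's groups overlapped, but the Myh8 call was lost without bulk MPC replicate 1 (1.14, adjusted p = 0.0631), differentiated replicate 2 (1.31, adjusted p = 0.0552) or differentiated replicate 3 (1.18, adjusted p = 0.0744).

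Myh7 differed by -3.18 ± 0.33 (edgeR adjusted p = 1.17e-05), with 31.04 to 43.8 TPM in bulk MPC and 349.5 to 493 TPM in differentiated myoblasts. Myh2 differed by -2.56 ± 0.60 (edgeR adjusted p = 0.00379), with 4.97 to 10.6 TPM in bulk MPC and 23.3 to 109 TPM in differentiated myoblasts. Both were lower in all bulk MPC libraries than in any differentiated library. Myh3 gave -0.37 ± 0.28 (edgeR adjusted p = 0.314), although its TPM did not overlap, with 4309 to 4817 TPM in bulk MPC and 6269 to 8091 TPM in differentiated myoblasts. Myh1 gave 0.65 ± 0.37 (edgeR adjusted p = 0.175) and Myh7b -0.66 ± 0.40 (edgeR adjusted p = 0.195). In TPM, which carry no TMM scaling, 6 of the 7 genes did not overlap between these groups, Myh1 being the exception, and neither did 56.8% of all tested genes.

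**Figure D3:**
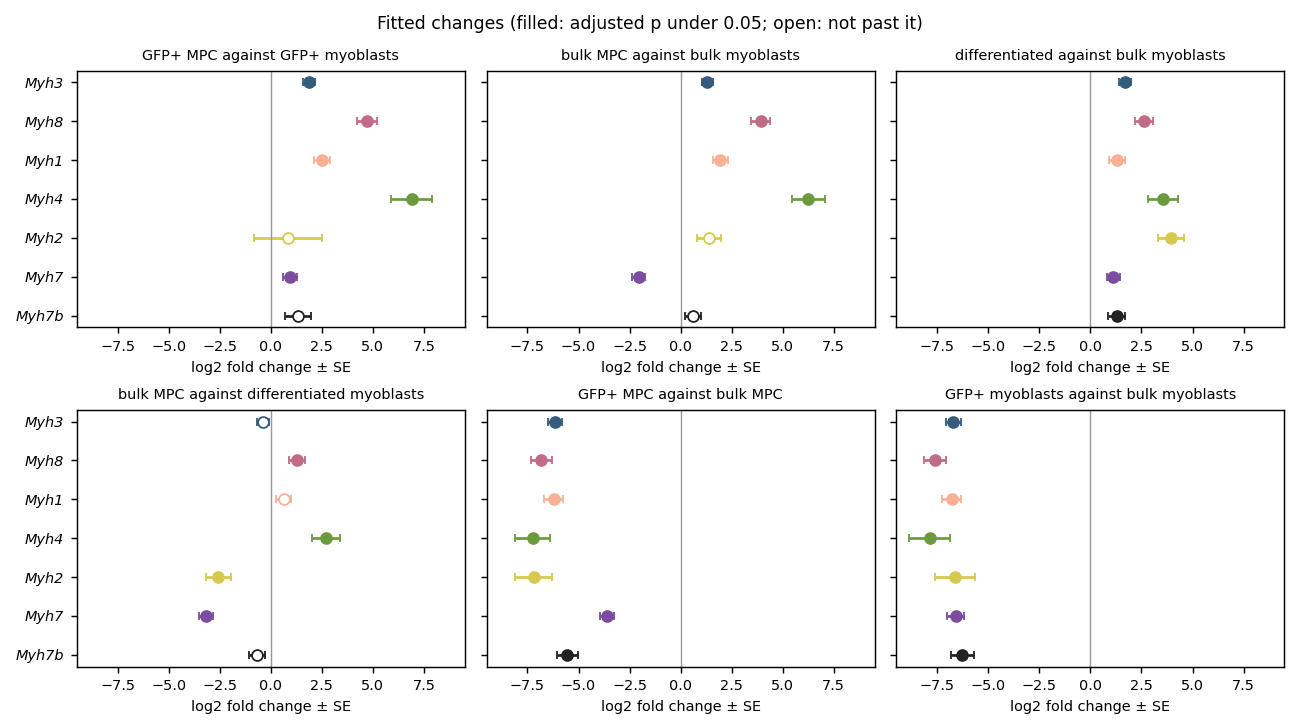
Fitted log2 fold change of each gene (horizontal axis, ± SE) in 6 comparisons, with filled points for an adjusted p under 0.05 in edgeR. In bulk MPC against differentiated myoblasts Myh4 is at 2.71 and Myh7 at -3.18, whereas all 7 genes are below -3 in both comparisons of sorted with unsorted cells.

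In both cultures all 7 genes were lower in the GFP+ cells than in the unsorted culture, and none overlapped in TPM. Of all tested genes, 22% were lower without overlap in GFP+ MPC against bulk MPC, and 20.2% in GFP+ myoblasts against bulk myoblasts. In GFP+ MPC against bulk MPC, where 33.7% of all genes were lower and 32.9% higher, the median log2 fold change was -6.21 over the 7 genes and -0.01 over all. In GFP+ myoblasts against bulk myoblasts, where 17.4% were lower and 12.7% higher, it was -6.71 over the 7 genes and -0.02 over all. Library totals alone put 68% of called genes on the higher side in the MPC cultures, against 49.4% here, and 56.9% in the myoblast cultures, against 42.1% here. The fitted log2 fold changes lay between -7.25 ± 0.85 (Myh4) and -3.60 ± 0.35 (Myh7) in GFP+ MPC, and between -7.88 ± 1.01 (Myh4) and -6.27 ± 0.56 (Myh7b) in GFP+ myoblasts. The markers of differentiated muscle were lower with them, at sums of 486 to 1098 TPM in GFP+ MPC against 20269 to 23022 TPM in bulk MPC, and their part in these differences was not tested. Mean TPM in GFP+ MPC was 1.92% of that in bulk MPC for Myh3, 1.20% for Myh8, 1.82% for Myh1, 0.889% for Myh4, 0.882% for Myh2, 3.77% for Myh7b and 13.9% for Myh7. Mean TPM in GFP+ myoblasts was 1.00% of that in bulk myoblasts for Myh3, 0.545% for Myh8, 0.966% for Myh1, 0.487% for Myh4, 0.897% for Myh2, 1.48% for Myh7b and 1.51% for Myh7. Myh7 in the MPC culture was thus the gene with the least reduction. The myoblast groups also differ in passage, with the sorted cells at 5 to 6 and the unsorted cells at 3.

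The difference between the sort effects of both cultures was tested as an interaction. It passed for 1 of the 7 genes, Myh7, and for 20.3% of all genes on the higher and 16.8% on the lower side; library totals alone put 78% of called genes on the higher side, against 54.7% here. Myh7 fell by 3.60 ± 0.35 in GFP+ MPC against bulk MPC and by 6.61 ± 0.40 in GFP+ myoblasts against bulk myoblasts, both on the log2 scale. The difference was 3.01 ± 0.46 (edgeR adjusted p = 0.000333), and it was between 2.56 and 3.39 over 20 alternatives. Bulk MPC had 37.5 ± 6.36 TPM and bulk myoblasts 209.9 ± 61.0 TPM of Myh7, while GFP+ MPC had 5.22 ± 3.37 TPM and GFP+ myoblasts 3.16 ± 0.786 TPM (SD, n = 3 each). The difference between cultures was in the unsorted cells more than in the sorted ones. For the other genes the interaction was 0.55 (Myh3), 0.78 (Myh8), 0.59 (Myh1), 0.64 (Myh4), 0.71 (Myh7b) and -0.55 (Myh2), with edgeR adjusted p-values between 0.301 and 0.851. In share of the sum, GFP+ MPC and bulk MPC did not overlap for Myh7 and Myh8 alone, and GFP+ myoblasts and bulk myoblasts for Myh7 alone. With counts in place of TPM, the mean Myh7 share was 4.21% in GFP+ myoblasts and 3.67% in bulk myoblasts.

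The order of levels over the 5 groups fell into 2 kinds. Myh8, Myh4 and Myh1 were highest in bulk MPC, then in differentiated myoblasts, bulk myoblasts, GFP+ MPC and GFP+ myoblasts. Among neighbours in that order Myh8 had no overlap, Myh1 overlapped between bulk MPC and differentiated myoblasts, and Myh4 overlapped between bulk myoblasts and GFP+ MPC. Myh3, Myh2, Myh7b and Myh7 were highest in differentiated myoblasts. Myh3 then followed the order bulk MPC, bulk myoblasts, GFP+ MPC and GFP+ myoblasts with no overlap. Myh2 and Myh7b had the same order, but bulk MPC overlapped with bulk myoblasts, and GFP+ MPC with GFP+ myoblasts. For Myh7 alone, bulk myoblasts came before bulk MPC, and its sorted groups overlapped.

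The family shares sequence, which limits how reads can be assigned among its members. Of the 31-base words of Myh1 transcripts, 42.9% also occur in other genes, 26.8% in Myh2. For Myh2 the share was 34.5%, for Myh4 30.4%, for Myh7 27.9%, mostly with Myh6, for Myh8 18.6%, for Myh3 10.6% and for Myh7b 0.273%. Myh7b counts were whole numbers (within 0.01) in all 16 libraries, whereas those of the other genes were whole in at most 2. The Myh2 counts of the replicated sorted libraries, 10.2 at most, stand beside 598 to 6081 counts of Myh1, and the high-passage library had 43 of Myh2 beside 551 of Myh1, and a split of shared reads cannot be told from low expression. The same limit holds for Myh4 in GFP+ myoblasts, with 5.20, 1.05 and 15.8 counts beside 598 to 1061 of Myh1. Of the words of Myh4, 19.4% occur in Myh1. All Myh4 TPM of GFP+ myoblasts fell on Myh4-202, whereas Myh4-201 held 78.4 to 86.3% in the means of the other replicated groups. Myh6, the cardiac alpha chain beside Myh7, stayed at or below 4.19 TPM in every library.

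How far a single transcript carried its gene differed between the members. Myh8-201 made up 96.7 to 98.7% of Myh8 TPM in the means of the 5 groups, and Myh3-202 between 51.9% and 63.9% of Myh3. In unsorted cultures Myh1 was spread over several transcripts, with Myh1-201 at 35.4% and Myh1-202 at 34.3% in bulk MPC. In GFP+ MPC, Myh1-202 held 58.7 ± 16.1%. Myh7-206, a 595-base transcript annotated with a retained intron, held 41.8% of Myh7 TPM in GFP+ MPC, 26.8% in GFP+ myoblasts, 28.2% in bulk MPC, 30.1% in differentiated myoblasts and 29.1% in bulk myoblasts, which raises Myh7 in TPM relative to counts. Myh2-201 ranged between 0.211% and 82.2% of Myh2 among the bulk MPC libraries, so the division of Myh2 among its transcripts was not stable between replicates.

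The high-passage GFP+ MPC library has no replicate and no test. Its 7-gene sum was 139 TPM, below the lowest GFP+ MPC library at 159 TPM. Myh3 at 90.9 TPM, Myh8 at 34.5 TPM, Myh4 at 4.00 TPM and Myh7b at 0.604 TPM lay within the range of the 3 GFP+ MPC libraries. Myh1 at 6.86 TPM lay below their range of 38.2 to 85.4 TPM, and Myh7 at 2.01 TPM below their 3.11 to 9.11 TPM. Myh2 at 0.528 TPM lay above their 0.0418 to 0.0901 TPM. In share of the sum, this library had 65.2% Myh3, 24.7% Myh8 and 4.92% Myh1. Its Myh8 share was close to that of the GFP+ MPC libraries, whereas age, sex, passage and the time in MPC medium all differ from theirs.

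Genes whose log2 CPM followed each member most closely over the 15 replicated libraries were found by Pearson's r, given here as a description. The libraries share the contrast between sorted and unsorted cells, and no p is given. Among the 3 genes nearest to Myh3 were Trim72 (r = 0.9977) and Myl4 (0.997), and those nearest to Myh8 were Sypl2 (0.9971), Adprhl1 (0.9968) and Myot (0.9952). Nearest to Myh1 were Casq2 (0.9956), Filip1 (0.9935) and Acta1 (0.9916), and nearest to Myh4 were Myot (0.9882), Usp2 (0.9873) and Atp1b2 (0.9855). Myot, which encodes the Z-disc protein myotilin, was thus among the nearest to both Myh8 and Myh4. Nearest to Myh7 were Gjd4 (0.9862), Clic3 (0.9849) and Tceal7 (0.9822), while the 3 nearest to Myh7b included Trim72 (0.9887) and Txlnb (0.9876), and those nearest to Myh2 included Yipf7 (0.9847) and Prune1 (0.982). Among the members themselves r was highest between Myh1 and Myh3 (0.983) and lowest between Myh4 and Myh7 (0.696), with 0.980 between Myh4 and Myh8, all over 15 libraries.

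The partners of the fast chains in the sarcomere, its calcium handling and its thin filament were counted next. Counts of this and the following lists stand beside the shares of all tested genes called higher and lower. These were 26% and 22.7% in GFP+ MPC against GFP+ myoblasts, and 28.4% and 30.1% in bulk MPC against bulk myoblasts. In differentiated against bulk myoblasts they were 25.6% and 28.6%, and in bulk MPC against differentiated myoblasts 24.4% and 19.4%. Of 8 fast fibre partners, all were higher in GFP+ MPC against GFP+ myoblasts (median log2 fold change 3.38), in bulk MPC against bulk myoblasts (2.57) and in differentiated against bulk myoblasts (2.08). In bulk MPC against differentiated myoblasts, 3 of the 8 were higher and none lower (median 0.73). These were Pvalb, the calcium buffer parvalbumin of fast fibres (4.50 ± 0.54), Mybpc2, the fast myosin-binding protein C (2.86 ± 0.44), and Casq1, calsequestrin of the fast sarcoplasmic reticulum (1.14 ± 0.37). Pvalb had 418 ± 37.1 TPM in bulk MPC, 23.1 ± 9.42 TPM in differentiated myoblasts and 1.43 ± 0.934 TPM in bulk myoblasts (SD, n = 3 each). Mybpc2 had 112 counts over the GFP+ MPC libraries and 0 over the GFP+ myoblasts, at least 41.8-fold higher against a floor of 3 counts over the group. With Mybpc2 at that bound the median of the list was still 3.38. Pvalb had 198 counts over GFP+ MPC and 2 over GFP+ myoblasts.

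Of 7 slow fibre partners tested, 4 were lower and none higher in bulk MPC against differentiated myoblasts (median -1.02), with Myl3 untested. The largest falls were in Myl2, the slow regulatory light chain (-4.57 ± 0.43), Tnnc1, the slow troponin C (-1.34 ± 0.34), and Atp2a2, the slow-fibre calcium pump (-1.05 ± 0.14). Myl2 had 3.80 ± 1.44 TPM in bulk MPC, 72.5 ± 31 TPM in differentiated myoblasts and 2.45 ± 1.43 TPM in bulk myoblasts. Against bulk myoblasts, bulk MPC had 4 of the 7 higher and 1 lower (median 0.62), led by Casq2 (1.61 ± 0.21), Myl2 (1.22 ± 0.47) and Tnni1 (1.09 ± 0.31), with Tpm3 lower (-1.68 ± 0.15). Differentiated myoblasts had 5 higher and 1 lower than bulk myoblasts (median 1.39), led by Myl2 (5.79 ± 0.46), Atp2a2 (1.67 ± 0.15) and Tnni1 (1.56 ± 0.32), with Tpm3 lower (-0.66 ± 0.14). Myl2 had 58 counts over bulk MPC and 34 over bulk myoblasts, and its TPM overlapped (2.34 to 5.22 and 1.57 to 4.10). Mean TPM of Tnnt1 (929 against 1504) and Tnnc1 (1983 against 2762) was lower in bulk MPC than in bulk myoblasts, with overlapping ranges. The slow partners thus went in both directions in bulk MPC against bulk myoblasts, where Myh7 itself was lower. In GFP+ MPC against GFP+ myoblasts, 3 were higher and 1 lower (median 0.67), with Casq2 (2.44 ± 0.23), Tnni1 (1.31 ± 0.32) and Tnnc1 (0.94 ± 0.34) higher and Tpm3 lower (-0.94 ± 0.14).

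Among 5 sarcomeric light chains tested, 4 were higher in bulk MPC against bulk myoblasts (median 1.22) and 5 in differentiated against bulk myoblasts (median 1.74), none lower in either, and Myl3 was untested. Myl1, the essential light chain of fast fibres, was higher by 2.16 ± 0.33 in bulk MPC and by 1.74 ± 0.32 in differentiated myoblasts. In bulk MPC against differentiated myoblasts, Myl2 and Myl6b (-1.47 ± 0.37) were lower and none was higher (median -0.83). In GFP+ MPC against GFP+ myoblasts, 3 were higher and none lower (median 1.009), namely Myl1 (3.27 ± 0.35), Myl4 (2.25 ± 0.35) and Mylpf (1.009 ± 0.30). Of 17 thick filament, chaperone and myosin-binding genes tested, with Mybpc3 untested, 11 were higher and 2 lower in bulk MPC against bulk myoblasts (median 1.15). They were led by Mybpc2 (7.61 ± 0.57), Mylk2, the kinase of the regulatory light chain (3.57 ± 0.35), and Mybpc1 (3.04 ± 0.36). The lower ones were Unc45a (-1.01 ± 0.18) and Hsp90aa1 (-0.91 ± 0.17), which encode a myosin chaperone and its HSP90 partner. In differentiated against bulk myoblasts 12 were higher and 2 lower (median 1.28), and in bulk MPC against differentiated myoblasts 4 were higher and 1 lower (median -0.13). In GFP+ MPC against GFP+ myoblasts 8 were higher and 6 lower (median 0.03), with Trim54 (-3.37 ± 0.51), Unc45a (-1.25 ± 0.18) and Smyd1 (-1.14 ± 0.31) lower.

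Of 26 regulators of myosin heavy chain genes, all tested, 12 were higher and 5 lower in bulk MPC against bulk myoblasts (median 0.55). Of all genes 28.4% were higher and 30.1% lower there. Myf6, the late myogenic factor MRF4, was higher by 3.70 ± 0.40, the calcineurin-dependent factor Nfatc2 by 2.94 ± 0.52 and Sox6, a repressor of slow fibre genes, by 2.85 ± 0.38. Lower were Myod1 (-2.17 ± 0.28), Ppargc1a, the coactivator of oxidative fibres (-1.24 ± 0.45), and Thrb. Thrb, a thyroid hormone receptor, was at 0 in all GFP+ MPC libraries and had 3 counts over bulk MPC, against 147 counts over GFP+ myoblasts, 369 over differentiated myoblasts and 257 over bulk myoblasts. The other thyroid hormone receptor, Thra, had 86.6 ± 32.0 TPM in GFP+ MPC and 11.1 ± 2.20 TPM in GFP+ myoblasts, a log2 fold change of 3.08 ± 0.30.

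In bulk MPC against differentiated myoblasts, 7 of the 26 regulators were higher and 7 lower (median -0.05). Of all genes 24.4% were higher and 19.4% lower, so these counts were not far from those of all genes. Myf6 (2.54 ± 0.38), Nfatc4 (1.90 ± 0.63) and the transcriptional cofactor Eya1 (1.62 ± 0.20) were higher, and Ppargc1a (-2.20 ± 0.46), Nfatc1 (-2.14 ± 0.23) and Thrb were lower. Nfatc4 had 173 counts over bulk MPC and 45 over differentiated myoblasts, and its TPM overlapped (0.259 to 2.17 and 0.334 to 0.802). Myf6 had 241 ± 55.5 TPM in bulk MPC, 51.7 ± 6.62 TPM in differentiated myoblasts and 26.6 ± 10.0 TPM in bulk myoblasts. In differentiated against bulk myoblasts 14 were higher and 4 lower (median 0.69), led by Nfatc2 (3.25 ± 0.53), Sox6 (1.88 ± 0.37) and Mef2c (1.77 ± 0.27), with Myod1 (-1.15 ± 0.27) and Eya1 (-0.62 ± 0.20) among the lower ones. In GFP+ MPC against GFP+ myoblasts 10 were higher and 7 lower (median 0.06, and the same with Thrb at its bound). Of all genes 26% were higher and 22.7% lower there. Higher were Nfatc2 (4.01 ± 0.63), Thra and Myf6 (2.45 ± 0.50), and lower were Ppargc1a (-4.81 ± 0.55), Myod1 (-2.23 ± 0.28) and Thrb. Sox6 and Nfatc2 were thus higher in both cultures rich in myotube transcripts, whereas Ppargc1a and Thrb were lower in bulk MPC than in either of the other unsorted groups.

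Other myosin II heavy chains changed in both directions. Of 6 tested, with Myh15 untested, 2 were higher and 1 lower in bulk MPC against bulk myoblasts (median 0.59). Higher were the non-muscle chain Myh14 (3.02 ± 0.50) and the extraocular chain Myh13 (2.04 ± 0.42), and lower the non-muscle chain Myh9 (-2.04 ± 0.17). Myh13 had 124 counts over bulk MPC, 104 over differentiated myoblasts and 41 over bulk myoblasts. Its TPM overlapped between bulk MPC (0.515 to 2.19) and bulk myoblasts (0.495 to 0.573). Of the 31-base words of Myh3, 4.96% occur in Myh13, and a split of shared reads cannot be told from expression. Myh9 was also lower in differentiated against bulk myoblasts (-1.82 ± 0.17), where Myh13 was higher (1.86 ± 0.42) and 4 did not pass (median 0.30). In bulk MPC against differentiated myoblasts Myh14 was higher (2.51 ± 0.49) and 5 did not pass (median 0.06). In GFP+ MPC against GFP+ myoblasts 4 were higher and 1, Myh9, was lower (-1.09 ± 0.17). Myh9 had 204 ± 31.5 TPM in GFP+ MPC, 490 ± 57.6 TPM in GFP+ myoblasts, 64.1 ± 20.1 TPM in bulk MPC, 85.5 ± 10.5 TPM in differentiated myoblasts and 373 ± 60.5 TPM in bulk myoblasts, with the lowest levels in bulk MPC and differentiated myoblasts.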

How the data were processed

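The authors deposited 1 file for each of 16 libraries, which per the file headers holds the estimated count, TPM, length and effective length (an other unit, in bases) of each transcript. Per the submitters' processing notes reads went through fastp 0.20.0 and kallisto 0.46.1 (GRCm39), and per the labels single-end reads came from stranded libraries of polyadenylated RNA. Estimated counts and TPM were summed per gene over the 120739 of 121798 transcripts that matched GENCODE M21. That annotation is on GRCm38 and served for names alone. The 1059 unmatched transcripts held 0.478 to 1.054% of counts and were left out.

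Rounded counts of the 15 replicated libraries were fitted together with edgeR 4.0.16 in R 4.3.3 (quasi-likelihood F test, TMM, a filter with minimum count 10 and minimum total 15, a term for each group). This left 15533 genes, all 7 members among them, and 10 residual degrees of freedom. Adjusted p values are Benjamini-Hochberg over all tested genes, with a threshold of 0.05. The SE was derived from the F statistic. Replicate pairs differed by more than counting error, with chi-square over degrees of freedom between 10.6 and 64.1. The labels call replicates biological but do not say which animal each came from. Deviations from group means correlated between same-numbered libraries of bulk MPC and bulk myoblasts (r 0.131 to 0.163, and -0.141 to -0.019 between different numbers), which pairs these groups by the data. Between GFP+ MPC and bulk MPC the same-numbered r was also the higher, though small (0.0335 to 0.042, against -0.0428 to 0.0118). Library names of the same replicate number share a prefix whose meaning the labels do not give. P-values measure the spread between these samples. Counting error alone is small for most members, and PCR duplicates are not marked in the files.

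All members were named, and from each gene list up to 3 genes with the largest rise and fall past the threshold; some genes this rule picks are not reported here. The members and lists were chosen with earlier results of these data known. Alternatives were DESeq2 1.42.0, other scalings and filters, length-scaled counts, the compared groups alone, a block for the replicate number, and leaving out each library; the script was tested on simulated data. Whole-number counts of Myh7b were judged within 0.01. Promoter sequences are from RefSeq GRCm38.p6, in which all 7 members were matched.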

Additional observations from a re-analysis of the deposited data

Results flagged for a closer look

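Myh7 was picked out because its response to the sort differed between the cultures by a test of that difference. Its log2 fold change was -3.60 ± 0.35 in GFP+ MPC against bulk MPC and -6.61 ± 0.40 in GFP+ myoblasts against bulk myoblasts, a difference of 3.01 ± 0.46 (SE, edgeR interaction, adjusted p = 0.000333, n = 3 in each of 4 groups). Myh7 was lower in all 3 sorted libraries than in all 3 unsorted libraries of both cultures. The sort and the RNA kit cannot be told apart, and 27.9% of the 31-base words of Myh7 occur in other genes. No group has the 4 or more samples that a search for single outlying libraries would need.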

How the results depend on the processing

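Over 49 fitted values of the 7 genes and 727 alternative values, 707 kept direction and side of the threshold, 11 lost the call, 7 gained it and 2 changed sign, neither past the test. These were the differences of sort effects of Myh2 without GFP+ myoblast replicate 1 (3.98, against -0.55 with it) and of Myh4 without bulk myoblast replicate 3 (-0.0168, against 0.64 with it). With single libraries left out, these ran between -1.11 and 3.98 for Myh2 and between -0.0168 and 2.06 for Myh4. Besides the losses and gains with left-out libraries given above, Myh7 in GFP+ MPC against GFP+ myoblasts lost its call with the compared groups alone (0.89, adjusted p = 0.0981) and with length-scaled counts (0.82, adjusted p = 0.0982), Myh7b in that comparison gained one in DESeq2 (1.31, adjusted p = 0.0228), and Myh2 in bulk MPC against bulk myoblasts gained one with the compared groups alone (1.39, adjusted p = 0.0474). Numbers of members called stayed within 1.5 times of those reported under all alternatives run. Of 175 alternative shares, 15 moved by more than the SD between replicates, all of Myh7 or Myh7b with coding transcripts alone or with counts in place of TPM. Scaling by library totals alone moved the median of all genes to 0.46 in GFP+ MPC against bulk MPC, -0.38 in bulk MPC against bulk myoblasts and -0.25 in differentiated against bulk myoblasts. Genes called in GFP+ myoblasts against bulk myoblasts numbered 4667, and 2719 without bulk myoblast replicate 3.

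With the replicate number as a block, 8986 genes were called in bulk MPC against bulk myoblasts, against 9087 without it, and Myh2 passed as given above. In GFP+ MPC against bulk MPC, r was small but higher between same-numbered libraries (0.0335 to 0.042) than between different numbers (-0.0428 to 0.0118). There 10232 genes were called with the block, against 10350 without it. In differentiated against bulk myoblasts the ranges touched, at 0.0437 to 0.135 and -0.141 to 0.0533. The other comparisons overlapped too, with r between same-numbered libraries of -0.0179 to 0.209. Outside bulk MPC against bulk myoblasts the block changed no call of the 7 genes. In GFP+ MPC against GFP+ myoblasts it gave 7319 called genes, against 7556 without it. Depth limits Myh2, Myh4 and Myh7b in GFP+ myoblasts, with at most 19 counts a library.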
